A study of Mus musculus with 20 samples.

Results

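The 9 genes described here are landmarks of the oligodendrocyte lineage, Olig1, Olig2, Sox10, Pdgfra, Cspg4, Mbp, Cnp, Sox8 and Nkx2-2, chosen by symbol from general knowledge of that lineage. Earlier results of these data were known when they were chosen. All 9 were listed in each of the 4 deposited tables, among 14700 genes in all. The tables hold 20 RNA sequencing libraries of primary cortical neurons, isolated from mice at embryonic day 15 and cultured for 7 days. N_WT libraries came from wild-type cultures kept for 12 h in medium with 25 mM glucose and sodium pyruvate in an ordinary incubator, and OGD_WT libraries from wild-type cultures kept for 12 h at 1% oxygen in medium without either supplement (oxygen and glucose deprivation). N_KO and OGD_KO libraries came from cultures treated in these same ways that lacked ciRS-7, a circular RNA of the Cdr1as locus. Each group had 5 libraries, described by the submitters as biological replicates. No label says whether a culture came from 1 embryo or from pooled embryos, and all 20 libraries, wild type included, carry the strain label C57BL/6N-Cdr1asem1Nikr.

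Oligodendrocytes make myelin, the lipid sheath of axons. They arise from oligodendrocyte precursor cells, which need the basic helix-loop-helix factors Olig1 and Olig2 and the SRY-box factor Sox10, carry the platelet-derived growth factor receptor Pdgfra and the proteoglycan Cspg4 (NG2) on their surface, and divide until they exit the cell cycle and switch on Cnp, Mbp and later myelin genes. Several of these genes are also used elsewhere: Olig1 and Olig2 in ventral forebrain progenitors, Sox8 in astroglia, Pdgfra in fibroblasts, Cspg4 in pericytes, and the Mbp locus gives neuronal golli transcripts that a table of genes does not separate from those for myelin.

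Promoter sequence is shown for the members that rose under OGD in at least 1 genotype and have an entry in the RefSeq promoter table of build GRCm38.p6 (the assembly of mm10), namely Olig2, Cspg4, Sox8 and Nkx2-2. Entries matched 6 of the 9 members, the other matches being Pdgfra and Cnp. Each run is the sequence before the transcription start, 5′ to 3′ on the gene's own strand, at chr16:91225300-91225456 (plus strand) for Olig2, chr9:56864854-56865032 (plus) for Cspg4, chr17:25570687-25570936 (minus) for Sox8 and chr2:147186456-147186652 (minus) for Nkx2-2. The Nkx2-2 window lies within an intron of a longer annotated transcript of the gene. Runs stop at 250 bases or where an annotated exon of the gene begins. This gives 157 bases for Olig2, 179 for Cspg4, 250 for Sox8 and 197 for Nkx2-2. Capitals mark ACGTG and GCGTG read on either strand, the core letters that hypoxia-inducible factors are known to bind, merged where matches overlap. The palindrome CACGTG holds ACGTG on both strands and is marked once.
Olig2: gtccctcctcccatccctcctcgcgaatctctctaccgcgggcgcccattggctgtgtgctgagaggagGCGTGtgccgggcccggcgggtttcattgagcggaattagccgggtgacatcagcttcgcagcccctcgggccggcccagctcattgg
Cspg4: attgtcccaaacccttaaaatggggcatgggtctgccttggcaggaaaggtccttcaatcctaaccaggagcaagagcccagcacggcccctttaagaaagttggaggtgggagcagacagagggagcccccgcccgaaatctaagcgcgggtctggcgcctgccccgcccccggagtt
Sox8: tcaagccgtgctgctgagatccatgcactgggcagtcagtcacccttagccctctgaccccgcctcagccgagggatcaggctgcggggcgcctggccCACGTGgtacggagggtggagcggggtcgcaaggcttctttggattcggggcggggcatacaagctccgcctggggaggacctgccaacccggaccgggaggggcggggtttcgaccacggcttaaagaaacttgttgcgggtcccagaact
Nkx2-2: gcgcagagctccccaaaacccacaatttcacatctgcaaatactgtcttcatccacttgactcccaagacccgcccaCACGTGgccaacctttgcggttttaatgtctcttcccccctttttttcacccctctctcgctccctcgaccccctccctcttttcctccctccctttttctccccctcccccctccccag
The core letters were found once each in the Olig2, Sox8 and Nkx2-2 windows and were not found in that of Cspg4. Among 32841 promoters read over 250 bases before the start, 38.6% held at least 1 of these cores and 6.02% held CACGTG. Over the full 250 bases the printed genes held the same numbers of matches as in their shorter runs. The match in Sox8 and in Nkx2-2 was a CACGTG, and the match in Olig2 was a GCGTG. The windows of Pdgfra and Cnp held 0 and 2 core matches.

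The members spanned a wide range of levels. As CPM (read counts scaled to library size) per kilobase of annotated exon, in N_WT, Olig2 was at 35.8 ± 11.4 (SD, n = 5), Pdgfra at 15.6 ± 1.88 (SD, n = 5) and Olig1 at 13.7 ± 2.44 (SD, n = 5). Sox8 followed on this per-length scale at 8.80 ± 1.69 (SD, n = 5). Cnp, Sox10, Mbp, Cspg4 and Nkx2-2 lay far lower, at means of 2.29, 1.56, 0.928, 0.833 and 0.565. Neighbours whose N_WT libraries overlapped in this order were Pdgfra and Olig1, Cnp and Sox10, Sox10 and Mbp, and Mbp and Cspg4. In OGD_WT the per-length means of Sox8 (13.7 ± 2.91, SD, n = 5) and Olig1 (10.6 ± 2.16, SD, n = 5) stood in the opposite order, and Mbp was the lowest member at 0.608 ± 0.112 (SD, n = 5). Reads per library ran from 396 to 2081 for Olig2 and from 12 to 41 for Nkx2-2. In GENCODE M21 annotation of mm10, Sox10 lies at chr15:79154908-79165240 (minus strand), Sox8 at chr17:25565892-25570686 (minus), Nkx2-2 at chr2:147177546-147194243 (minus), Pdgfra at chr5:75152292-75198215 (plus), Cspg4 at chr9:56865033-56899870 (plus) and Cnp at chr11:100574904-100591729 (plus), and Mbp lies on chromosome 18.

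The reads recovered from the deposited values ranged from 7071506 to 16658617 per library. Cdr1as, the targeted locus, had 545 to 1912 reads in wild-type libraries and 2 to 16 in knockout libraries, so the genotype labels held in all 20. The labelled cell type was met by its markers: all 14 neuron genes listed were measured, with summed levels of 5618 to 6951 CPM in N_WT. Of microglial markers, Csf1r, Cx3cr1 and Aif1 were not in the tables, and endothelium was represented by 1 of 10 marker genes (Kdr). Astrocyte genes were present, 10 of 12, as were all 10 dorsal progenitor genes. Of 27 myelin genes other than the members, 7 were in the wild-type table, and Mog, Mag, Mobp, Opalin and Aspa were in none of the 4.

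OGD was compared with normoxia in wild-type cultures first. Of the 9 members, 3 rose (Cspg4, Sox8 and Nkx2-2) and 1 fell (Mbp) at a limma adjusted p under 0.05, while 5 did not pass the test. Of all 14235 genes tested there, 44.3% were called, 21.6% higher and 22.8% lower, so 4 of 9 members is near the background share. In the knockout cultures 5 members rose, the same 3 with Olig2 and Sox10, and 0 fell by limma, by voom or at an unadjusted p under 0.05. Of all 14375 genes tested in knockout, 40.9% were called, 21% higher and 19.9% lower. The median log2 fold change of the members was 0.47 in wild type and 0.48 in knockout, beside -0.03 and 0.00 over all genes tested. Medians of this size were not particular to the members. They were 0.67 and 0.63 for listed astrocyte genes, 0.63 and 0.47 for dorsal progenitor genes and 0.94 and 1.05 for proliferation genes. For neuron genes they were -0.80 and -0.75, and for the other lineage genes -0.03 in each genotype. Groups did not overlap for 1 member in each genotype (Nkx2-2), against 26.9% and 25.8% of all genes. The batch labels 3.1, 3.2 and 3.3 were pooled as batch 3, which holds most of the cultures. Within it, 4 members were called in wild type (cultures 2 to 5) and 0 in knockout by limma (cultures 2, 4 and 5, with 1 at an unadjusted p under 0.05), where the log2 fold changes were 0.34 for Olig2, 0.46 for Sox10, 0.37 for Cspg4, 0.42 for Sox8 and 0.71 for Nkx2-2. Leaving out 1 culture gave 2 members (without culture 3) to 6 (without culture 2) in wild type, and 1 member (Nkx2-2) in knockout without culture 1 or culture 3. In bulk RNA, more cells of a type and more RNA per cell cannot be told apart.

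**Figure D1:**
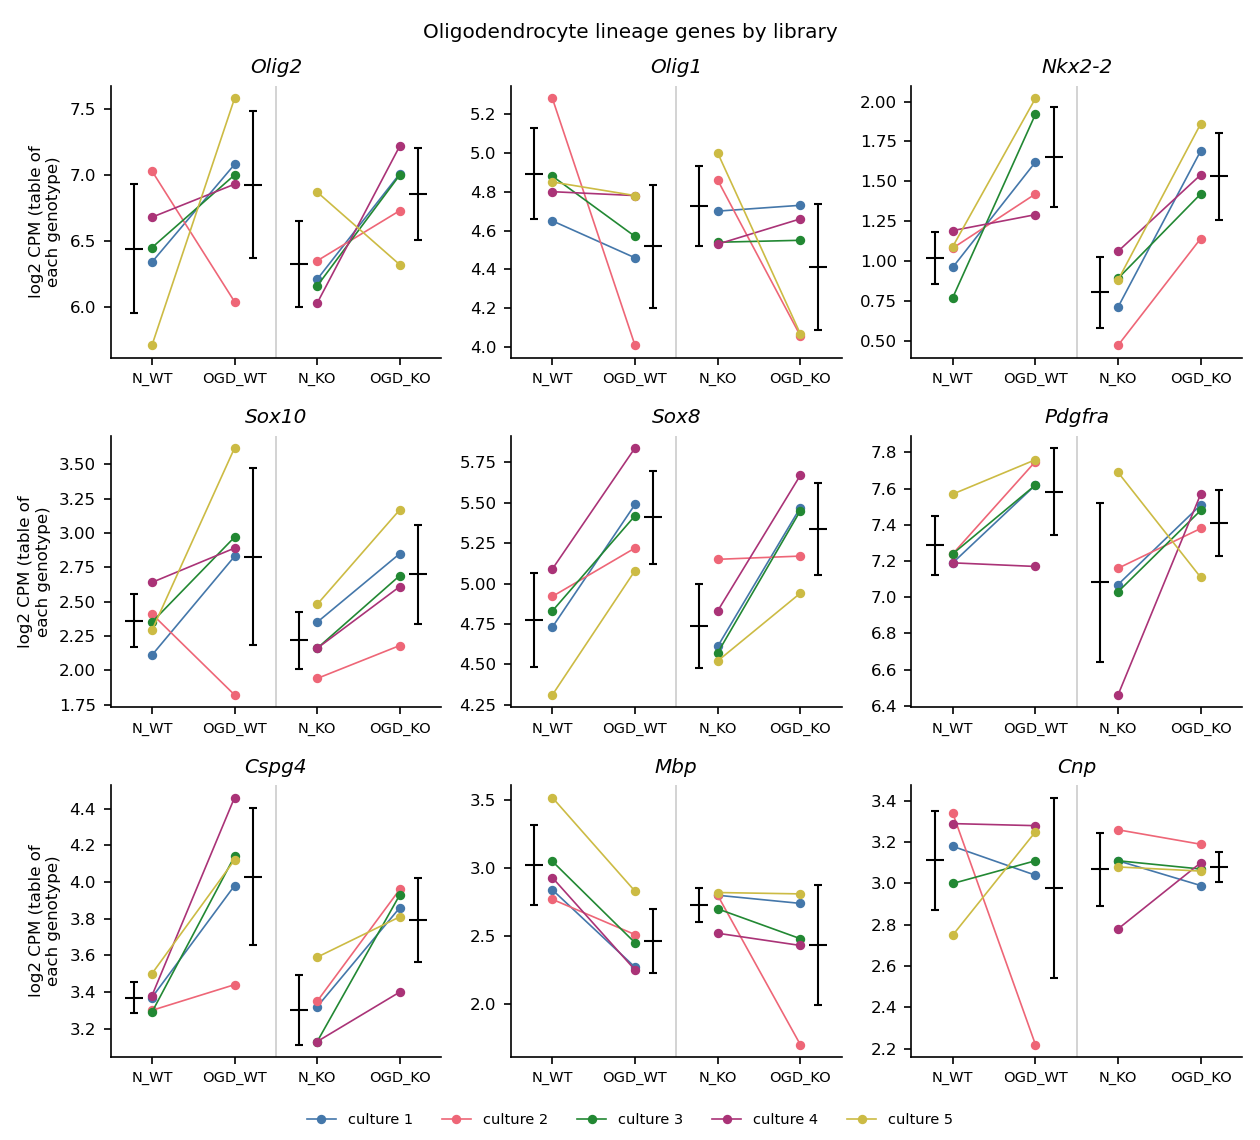
Level of each member in every library (log2 CPM on the scale of each genotype's table, y axis) by group (x axis); lines join the N and OGD libraries of 1 culture, black bars are the mean ± SD of 5 libraries, and culture numbers are separate cultures in each genotype. Nkx2-2 is higher in every OGD library than in every N library of its genotype, whereas Olig2 and Sox10 are lower under OGD in wild-type culture 2 and higher in the other 4 wild-type cultures.

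Among the transcription factors, Olig2, which specifies the lineage, was at 6.34, 7.03, 6.45, 6.68 and 5.71 log2 CPM in N_WT cultures 1 to 5. In the OGD_WT libraries of these cultures Olig2 was at 7.08, 6.04, 7.00, 6.93 and 7.58. The groups overlapped: 4 cultures were higher under OGD, and culture 2 went from the highest N_WT value to the lowest OGD_WT value. The log2 fold change of Olig2 was 0.49 with SE 0.24 (limma adjusted p 0.1, exact permutation p 0.198), and without culture 2 it was 0.85 (limma adjusted p 0.00525). In the knockout, Olig2 was at 6.21, 6.35, 6.16, 6.03 and 6.87 in N_KO and at 7.01, 6.73, 7.00, 7.22 and 6.32 in OGD_KO. Here culture 5 moved against the other 4, and the log2 fold change was 0.53 with SE 0.19 (limma adjusted p 0.028, exact permutation p 0.0476). This call was lost without any 1 of cultures 1, 2, 3 and 4 (limma adjusted p 0.0559 to 0.152) and with the culture as a block (limma adjusted p 0.0838).

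Olig1, the close relative of Olig2 that acts in oligodendrocyte maturation, was at 4.65, 5.28, 4.88, 4.80 and 4.85 log2 CPM in N_WT. Its OGD_WT values were 4.46, 4.01, 4.57, 4.78 and 4.78. All 5 cultures were lower under OGD, by little in cultures 4 and 5 and most in culture 2, and the groups overlapped. The log2 fold change of Olig1 was -0.37 with SE 0.17 (limma adjusted p 0.0721, exact permutation p 0.0476), and -0.45 without culture 5 (limma adjusted p 0.0184). Olig1 was at 4.70, 4.86, 4.54, 4.53 and 5.00 in N_KO and at 4.73, 4.06, 4.55, 4.66 and 4.07 in OGD_KO. Cultures 2 and 5 were lower under OGD and the other 3 barely moved, with a log2 fold change of -0.31 and SE 0.17 (limma adjusted p 0.138, exact permutation p 0.135).

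Olig1 and Olig2 are neighbours on chromosome 16 of mm10, Olig2 at 91225457 to 91228677 and Olig1 at 91269772 to 91271933, both on the plus strand and 41095 bases apart. Their balance shifted in every culture. This comparison was added after their values were seen, so its p-values are descriptive and not an independent test. Among single genes, N and OGD groups did not overlap for 26.9% in wild type and 25.8% in knockout, and the same share for pairs of genes was not computed. The log2 level of Olig2 minus that of Olig1 was 1.69, 1.75, 1.57, 1.88 and 0.86 in N_WT and 2.62, 2.03, 2.43, 2.16 and 2.80 in OGD_WT. The wild-type groups did not overlap, and the mean went from 1.55 ± 0.40 (SD, n = 5) to 2.41 ± 0.32 (SD, n = 5), a difference of 0.86 (exact permutation p 0.00794, the smallest that 5 against 5 libraries allow). In N_KO the same quantity was 1.51, 1.48, 1.62, 1.5 and 1.87, and in OGD_KO 2.28, 2.67, 2.45, 2.56 and 2.25. Again no OGD library reached down to a normoxic one, and the difference of means was 0.84 (exact permutation p 0.00794). Leaving out 1 culture gave differences of 0.59 to 1.00 in wild type, where 0.59 is the value without culture 5, and of 0.76 to 0.96 in knockout. As the groups did not overlap, the sign could not change. Because both genes were measured in the same library, no scaling of libraries moves this difference. Knockout and wild type differed in this quantity by 0.05 in normoxia, with an exact permutation p of 0.897. The same difference under OGD was 0.03, with an exact permutation p of 0.841.

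**Figure D2:**
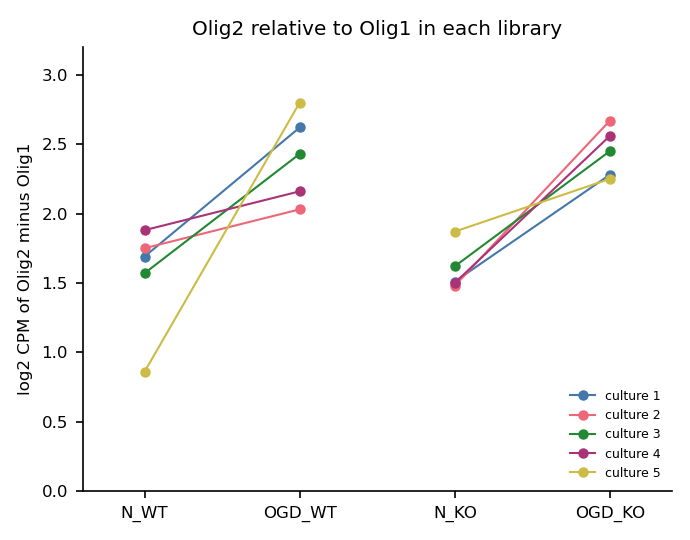
Log2 CPM of Olig2 minus that of Olig1 in each library (y axis) by group (x axis), with lines joining the N and OGD libraries of a culture. All 5 lines rise in each genotype, from at most 1.88 in N_WT to at least 2.03 in OGD_WT.

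Nkx2-2, a homeodomain factor that acts with Olig2 at the start of oligodendrocyte differentiation, was the lowest member per length in normoxia. Its N_WT values were 0.96, 1.08, 0.77, 1.19 and 1.09 log2 CPM (13 to 25 reads), and its OGD_WT values 1.62, 1.42, 1.92, 1.29 and 2.02 (16 to 41 reads). Every OGD_WT library lay above every N_WT library, with culture 4 moving least. Nkx2-2 rose by a log2 fold change of 0.64 with SE 0.19 (limma adjusted p 0.00846, exact permutation p 0.00794), and without culture 3 the value was 0.51 (limma adjusted p 0.112). In N_KO it was at 0.71, 0.47, 0.89, 1.06 and 0.88, and in OGD_KO at 1.69, 1.14, 1.42, 1.54 and 1.86. The knockout groups did not overlap either, and the rise was 0.73 with SE 0.19 (limma adjusted p 0.00427, exact permutation p 0.00794). The gene shares 278 exon bases with the antisense transcript Nkx2-2os, which is not in the tables. Sox8 likewise shares 329 with the antisense transcript 2810468N07Rik, Olig1 157 with Gm15966 and Pdgfra 456 with Gm42802, none of them in the tables. Whether counting used strand is not given in the sources used here, so reads of these genes and their antisense partners may not be told apart.

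Sox10, which drives myelin genes once precursors differentiate, was at 2.11, 2.41, 2.35, 2.64 and 2.29 log2 CPM in N_WT. Under OGD these cultures were at 2.83, 1.82, 2.97, 2.89 and 3.62. As with Olig2, culture 2 was lower under OGD and the other 4 were higher, culture 5 most. The log2 fold change of Sox10 in wild type was 0.47 with SE 0.23 (limma adjusted p 0.104, exact permutation p 0.159), and without culture 2 it was 0.73 (limma adjusted p 0.00889). N_KO values were 2.35, 1.94, 2.16, 2.16 and 2.48, and OGD_KO values 2.85, 2.18, 2.69, 2.61 and 3.17. All 5 knockout cultures were higher under OGD although the groups overlapped, with a log2 fold change of 0.48 and SE 0.18 (limma adjusted p 0.0404, exact permutation p 0.0317). That call was lost with voom weights (limma adjusted p 0.0567) and without any 1 of cultures 1, 3, 4 and 5 (limma adjusted p 0.0635 to 0.131).

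Sox8, a paralogue of Sox10 that also marks astroglia, rose in both genotypes. In wild type it went from 4.73, 4.92, 4.83, 5.09 and 4.31 log2 CPM in N_WT to 5.49, 5.22, 5.42, 5.84 and 5.08 in OGD_WT. All 5 cultures rose, and the groups overlapped only between the highest N_WT library (culture 4) and the lowest OGD_WT library (culture 5). The rise of Sox8 was 0.63 with SE 0.17 (limma adjusted p 0.0044, exact permutation p 0.0159). The knockout cultures went from 4.61, 5.15, 4.57, 4.83 and 4.52 in N_KO to 5.47, 5.17, 5.45, 5.67 and 4.94 in OGD_KO. Culture 2 stayed level and the other 4 rose, giving 0.60 with SE 0.17 (limma adjusted p 0.00702, exact permutation p 0.0159), a call lost without culture 1 (limma adjusted p 0.0554) or culture 3 (limma adjusted p 0.061). Astrocyte genes moved in the same direction: their summed level was 1498 to 1969 CPM in N_WT and 2343 to 2995 in OGD_WT, and 6 of 10 measured rose and 1 fell there, while 5 of 10 rose in knockout. The part of these cells in the change of Sox8 was not tested.

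Of the precursor surface proteins, Cspg4, the NG2 proteoglycan, rose in both genotypes. It stood at 3.37, 3.30, 3.29, 3.38 and 3.5 log2 CPM in N_WT and at 3.98, 3.44, 4.14, 4.46 and 4.12 in OGD_WT. The N_WT libraries were tightly grouped, and under OGD the library of culture 2 alone remained within their range. The log2 fold change of Cspg4 was 0.66 with SE 0.17 (limma adjusted p 0.00291, exact permutation p 0.0159). Its values were 3.32, 3.35, 3.13, 3.13 and 3.59 in N_KO and 3.86, 3.96, 3.93, 3.4 and 3.81 in OGD_KO. All 5 knockout cultures rose, cultures 4 and 5 least, by 0.49 with SE 0.15 (limma adjusted p 0.0149, exact permutation p 0.0159), a call lost without culture 1 (limma adjusted p 0.071) or culture 3 (limma adjusted p 0.132). Among mural markers 4 of 12 were measured in both tables. Tagln and Acta2, genes of the contractile cytoskeleton, rose in both, Pdgfrb fell in wild type, and Rgs5, Kcnj8, Abcc9, Myh11 and Des were not in these tables. The summed level of the mural list was 12.1 to 16.8 CPM in N_WT and 16.9 to 22.1 in OGD_WT, and its part in the change of Cspg4 was not tested.

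Pdgfra, the receptor that keeps precursors dividing, was at 7.19 to 7.57 log2 CPM (median 7.24) in N_WT and 7.17 to 7.76 (median 7.62) in OGD_WT. Cultures 1, 2, 3 and 5 were higher under OGD and culture 4 was level, so the groups overlapped at 1 library. Its log2 fold change was 0.30 with SE 0.15 (limma adjusted p 0.111, exact permutation p 0.0794), and 0.38 without culture 4 (limma adjusted p 0.0278). In knockout Pdgfra ranged from 6.46 to 7.69 in N_KO (median 7.07) and from 7.11 to 7.57 in OGD_KO (median 7.48). Culture 4 was higher under OGD by the most and culture 5 was lower, for a log2 fold change of 0.33 with SE 0.19 (limma adjusted p 0.169, exact permutation p 0.151), which became 0.55 without culture 5 (limma adjusted p 0.00557). The ligand gene Pdgfa fell in both genotypes, by 0.42 in wild type (limma adjusted p 0.0457) and by 0.46 in knockout (limma adjusted p 0.0488), in 4 of 5 cultures each. Of the fibroblast markers that could share Pdgfra, 3 of 12 were measured in wild type, with Col1a1, Col1a2 and Lum not in that table and a summed level of 12.5 to 15.9 CPM in N_WT and 14.4 to 20.3 in OGD_WT.

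Of the myelin proteins, Mbp fell in wild type and Cnp did not pass the test in either genotype. Mbp, myelin basic protein, was at 2.84, 2.77, 3.05, 2.93 and 3.52 log2 CPM in N_WT and at 2.27, 2.51, 2.45, 2.25 and 2.83 in OGD_WT. All 5 cultures were lower under OGD, and only the OGD_WT library of culture 5 reached into the range of N_WT. Mbp fell by 0.56 with SE 0.17 (limma adjusted p 0.0113, exact permutation p 0.0159), and without culture 3 the change was -0.55 (limma adjusted p 0.0602). The knockout values were 2.80, 2.80, 2.70, 2.52 and 2.82 in N_KO and 2.74, 1.70, 2.48, 2.43 and 2.81 in OGD_KO. Culture 2 was far lower under OGD and the other 4 differed little, with a log2 fold change of -0.30 and SE 0.19 (limma adjusted p 0.217, exact permutation p 0.151). The difference of the Mbp responses between genotypes, tested over all 20 libraries, was 0.26 with a 95% interval of -0.35 to 0.87.

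Cnp, the myelin enzyme 2′,3′-cyclic nucleotide phosphodiesterase, was at 2.75 to 3.34 log2 CPM (median 3.18) in N_WT and 2.22 to 3.28 (median 3.11) in OGD_WT. Its ranges overlapped fully apart from a low OGD_WT library of culture 2. The log2 fold change was -0.13 in wild type (limma adjusted p 0.604) with a 95% interval of -0.53 to 0.27, and 0.01 in knockout (limma adjusted p 0.945) with an interval of -0.28 to 0.31. Cnp shares 154 exon bases with Dnajc7 on the opposite strand, which is in all 4 tables.

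**Figure D3:**
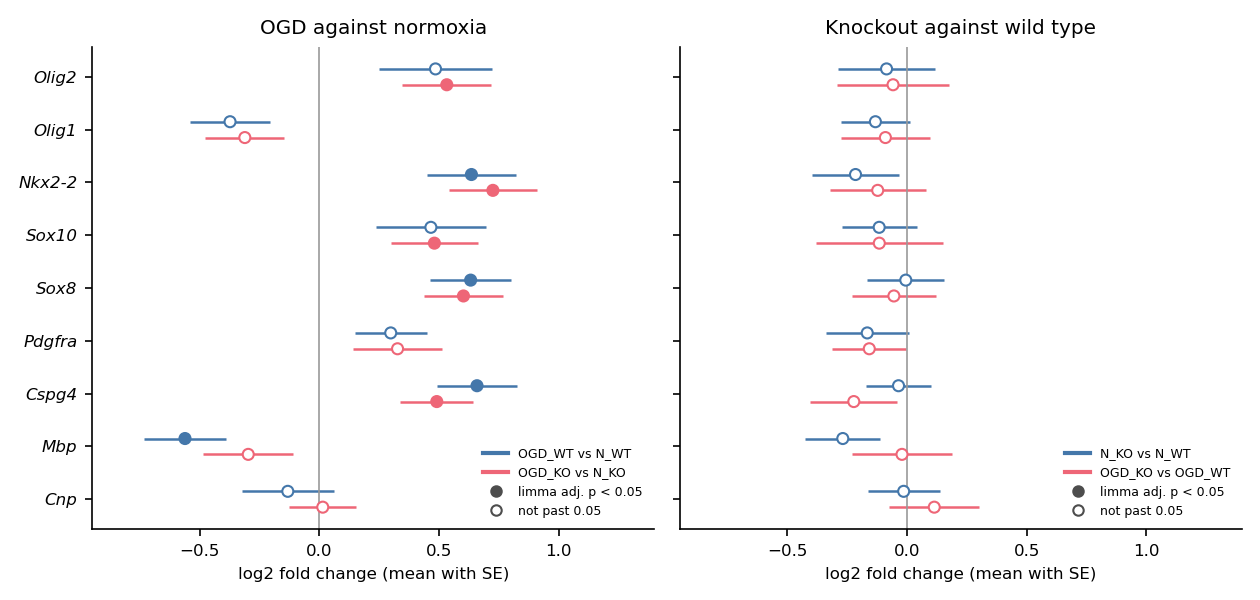
Log2 fold change with SE of each member (x axis) for OGD against normoxia in each genotype (left) and for knockout against wild type in each condition (right); filled points had a limma adjusted p under 0.05. The left panel holds 9 filled points, 4 in wild type and 5 in knockout, and the right panel holds 0.

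The same cultures went with or against the group for several members at once. In wild-type culture 2 the median change of the 9 members was -0.26 and 4 were higher under OGD, and in culture 4 it was 0.10 with 5 higher. In cultures 1, 3 and 5 it was 0.62, 0.55 and 0.61 with 6, 7 and 7 higher. In knockout culture 5 the median was -0.01 and 4 were higher, against 0.50, 0.22, 0.53 and 0.44 in cultures 1 to 4. The OGD_KO library of culture 5 was low beyond the members, whose mean deviation from the group was -0.22. Its mean deviations were -0.45 for astrocyte, -0.49 for neuron, -0.30 for dorsal progenitor and -0.10 for proliferation genes. In the OGD_WT library of culture 2 the members were at -0.42, and these lists at 0.19, -0.09, 0.18 and 0.32. Over the 20 libraries with group means removed, 28 of the 36 pairs of members correlated positively (median Pearson r 0.40), from -0.28 for Mbp and Sox8 to 0.82 for Olig1 and Olig2. Next came Olig2 with Cnp (r 0.79) and Sox10 with Nkx2-2 (r 0.65). These values describe libraries that share depth and scaling, and with a median ratio scaling 25 pairs stayed positive, the median r was 0.27 and Olig1 with Olig2 gave 0.78. Olig1 and Olig2 thus varied together within groups, while the difference of their group means was larger under OGD than in normoxia.

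The genes most like the members over the 20 libraries were ranked by Pearson r after group means were removed, among genes with a mean joint log2 CPM of at least 1 (12678 for the mean of the members and 12686 for Olig1). Fbxl2 (r 0.92), Txndc11 (r 0.92), Lemd3 (r 0.91), Zfc3h1 (r 0.91) and E130308A19Rik (r 0.91) came first for the mean of the members, and 3 of these 5 were also among the first 5 after median ratio scaling. For Olig1 alone, the first 5 were Lipa (r 0.94), Zfp87 (r 0.92), Lrrc8c (r 0.91), Ovca2 (r 0.91) and Ppp1r3d (r 0.91), all 5 also first after that scaling. The members themselves were left out of the ranking for their mean, so none could appear there. No other member was among the 5 for Olig1, and no other lineage gene was among either set of 5.

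The other genes of the lineage did not move one way. Of 83 listed, 55 were measured in wild type, and 17 rose and 15 fell there under OGD (median -0.03). These 32 calls among 55 stand beside 44.3% of all genes called. In knockout 17 rose and 11 fell of 56 measured (median -0.03), 28 calls beside 40.9% of all genes. The calls held in common numbered 25, of 32 in wild type and 28 in knockout, and all 25 had the same direction in both genotypes. Without knockout culture 3 the count there was 17, all among those 28, and with batch 3 cultures only (cultures 2, 4 and 5) it was 12. Lists of lineage genes were written from general knowledge, with earlier results of these data known. Some of their genes, such as Sox9 and Hes5, also stand in lists of astrocyte, progenitor or Schwann cell genes.

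Regulators gave 7 rises and 2 falls among 19 measured in each genotype. The chromatin remodeller Chd7 rose by 1.24 in wild type (limma adjusted p 5.52e-06) and 1.12 in knockout (limma adjusted p 3.66e-05), in 5 of 5 cultures each. Sox9, which acts in glial specification, rose by 0.91 in wild type and 0.88 in knockout (limma adjusted p 0.000856 and 0.0219). Yy1, a zinc finger factor needed for oligodendrocyte differentiation, rose by 0.86 and 0.92 (limma adjusted p 0.00042 and 0.00193). Sox5, which holds back precursor differentiation and is also a factor of deep-layer neurons, fell by 1.10 and 1.09 in 5 of 5 cultures of each genotype (limma adjusted p 2.34e-05 and 2.84e-05). Myrf, the regulator of myelin genes, was not in the tables.

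Genes of precursor cells divided evenly, with 5 rises and 7 falls among 20 in wild type and 4 of each in knockout. Ptprz1, a receptor phosphatase of precursors and radial glia, rose by 0.95 in wild type (limma adjusted p 6.54e-05) and by 0.89 in knockout (limma adjusted p 0.00327). Lingo1, a neuronal and oligodendroglial brake on differentiation, fell by 0.80 in wild type (limma adjusted p 0.00235) and by 0.77 in knockout (limma adjusted p 0.00292). Among 9 genes of committed precursors 2 rose and 3 fell in each genotype. Rras2, a small GTPase, fell by 1.30 and 1.25 (limma adjusted p 5.96e-06 and 1.03e-05). The receptor gene Gpr37 fell by 1.11 in wild type and 0.62 in knockout (limma adjusted p 2.7e-05 and 0.00818). Tmem163, a zinc transporter, fell by 0.75 and 0.97 (limma adjusted p 0.00631 and 0.000167).

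Myelin-stage genes held both the steepest rise and the steepest fall among these lists. Anln, which encodes anillin, a protein of cell division that also serves in myelin, rose by 1.72 in wild type (limma adjusted p 1.74e-08) and 1.78 in knockout (limma adjusted p 6.66e-08). Car2, a carbonic anhydrase, rose by 1.29 and 1.62 (limma adjusted p 1.51e-05 and 3.17e-06). Tspan2, a tetraspanin, fell by 1.84 and 1.55 (limma adjusted p 6.33e-08 and 7.34e-07), and Ermn, a cytoskeletal protein of myelin, fell by 0.98 and 0.63 (limma adjusted p 0.00136 and 0.0277). Each of these changes was seen in 5 of 5 cultures, except that of Ermn in knockout, seen in 4 of 5. Proliferation genes, a list without Anln, rose 12 of 12 in both genotypes, with summed levels of 535 to 723 CPM in N_WT and 1011 to 1707 in OGD_WT. Neuron genes fell, 10 of 14 in wild type and 11 of 14 in knockout, and dorsal progenitor genes gave 5 rises of 10 in each genotype and 1 fall in wild type. Of the ventral progenitor genes, which share Olig1 and Olig2, 3 of 11 rose and 2 fell in wild type, and 4 of 10 rose and 2 fell in knockout. Of the Schwann cell and neural crest genes, 4 of 9 were measured, with Foxd3 and Erbb3 not in these tables. Of these 4, 2 rose in each genotype and 1 fell in wild type, with summed levels of 16.3 to 20.6 CPM in N_WT and 23.6 to 36.3 in OGD_WT. The part of these cell types in the members' changes was not tested.

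**Figure D4:**
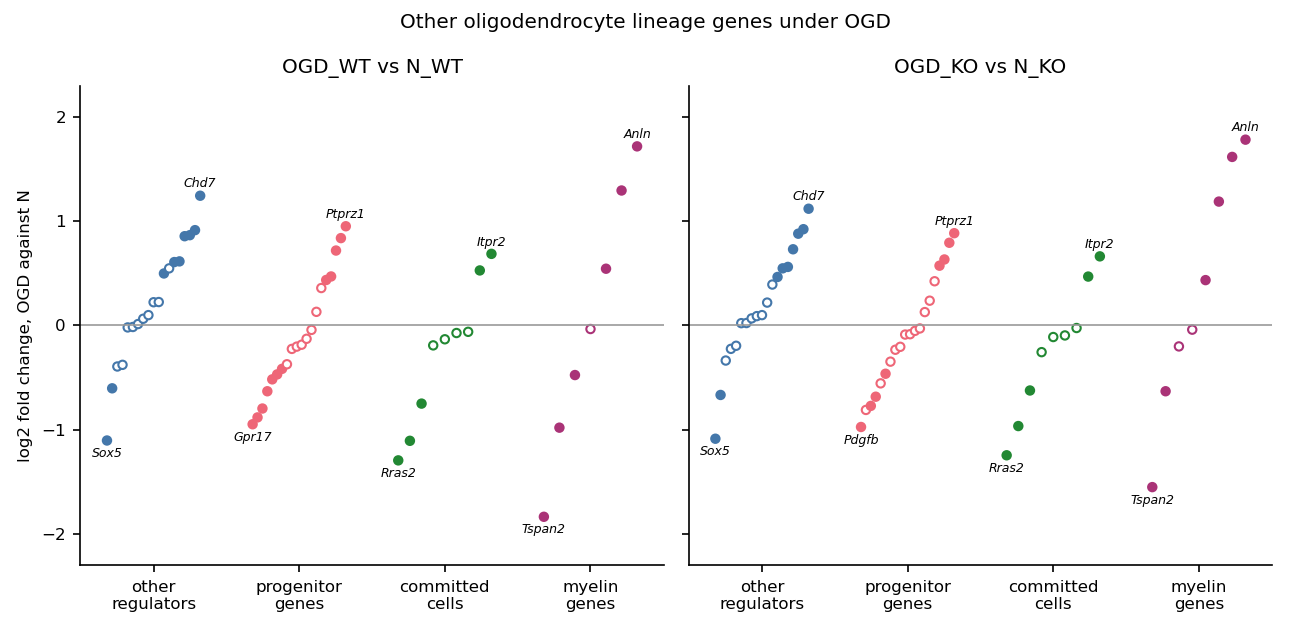
Log2 fold change under OGD (y axis) of the other lineage genes by role (x axis), each point 1 gene, in wild type (left) and knockout (right), with filled points at a limma adjusted p under 0.05 and the called gene at each end named. Rises and falls stand side by side in all 4 roles, from Tspan2 (-1.84) to Anln (1.72) in wild type.

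Loss of ciRS-7 was compared within each condition. In normoxia the limma test called 0 of 9 members, with 0 at an unadjusted p under 0.05 and 0 by voom, beside 0.0353% of all 14152 genes. All 9 members were lower in N_KO than in N_WT on average, by log2 fold changes of -0.27 to -0.01 (median -0.12, against 0.00 over all genes), but for each one the libraries of the groups overlapped, as they did for all but 0.325% of genes. Members varied together within groups (28 of 36 pairs positive), so these 9 signs are not 9 independent results. Farthest down was Mbp, with a mean log2 CPM of 3.13 ± 0.30 (SD, n = 5) over the wild-type libraries against 2.86 ± 0.12 (SD, n = 5) over the knockout libraries (exact permutation p 0.0635). Nkx2-2 was at 1.06 ± 0.17 (SD, n = 5) and 0.85 ± 0.25 (SD, n = 5), with an exact permutation p of 0.151. Over the 95% intervals of the 9 differences, the lowest bound was -0.60 and the highest 0.34.

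Under OGD the knockout again gave 0 of 9 members by limma, with 0 at an unadjusted p under 0.05 and 0 by voom, beside 0.0282% of 14185 genes. Log2 fold changes ran from -0.22 for Cspg4 to 0.11 for Cnp, with 8 of 9 below 0 (median -0.09, against -0.01 over all genes). Here too the signs of the members are not independent. All 9 pairs of groups overlapped, and 0.345% of all genes did not. The mean log2 CPM of Cspg4 was 3.87 ± 0.38 (SD, n = 5) over the wild-type libraries against 3.65 ± 0.23 (SD, n = 5) over the knockout libraries (exact permutation p 0.27). Over the 95% intervals of the 9 members, the lowest bound was -0.67 and the highest 0.51. None of the other lineage genes was called in either genotype comparison by limma or by voom (0 of 55 each), and 1 in normoxia and 2 under OGD had an unadjusted p under 0.05.

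Whether OGD acted differently without ciRS-7 was tested as an interaction over 20 libraries, with 13688 genes on a joint scale. Of the members 0 were called by limma and 0 had an unadjusted p under 0.05, beside 0% of all genes called. Estimates lay between -0.18 (Cspg4) and 0.26 (Mbp), each with a limma adjusted p of 1. The widest 95% interval was that of Olig2, 0.04 with bounds of -0.70 and 0.77, and the interval of Nkx2-2 was -0.52 to 0.74 around 0.11. The calls of Olig2 and Sox10 in knockout alone, and of Mbp in wild type alone, are therefore not shown to differ between genotypes.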

How the data were processed

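Expression of 9 oligodendrocyte lineage genes was followed in 20 libraries of total RNA made with a stranded kit, per the labels' protocols. The authors deposited 4 tables of log2 CPM, 1 per comparison, with 10 libraries and 14152 to 14375 gene symbols each, per the file headers. The genome build was mm10, per the submitters' processing notes, and the aligner, counter, annotation and gene filter are not given in the sources used here.

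In each gene and group of 5, the deposited log2 values behaved as if clipped at the 10th and 90th percentile (weights 0.6 and 0.4 on the extreme value and its neighbour), a step inferred from the values and undone here. Once undone, at least 99.9% of values per library corresponded to whole reads, against 45.5% to 92.8% as deposited (within 0.05 reads, genes of up to 500 reads). Clipping shrinks the spread between libraries and so lowers p-values. Totals were 7071506 to 13168705 reads in N_WT, 7580741 to 14762866 in N_KO, 9217019 to 16658617 in OGD_WT and 7494946 to 14523455 in OGD_KO, and fewer reads mean a wider counting error.

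Each comparison was fitted over its whole table with limma 3.58.1 in R 4.3.3 (lmFit, eBayes with an intensity trend), 5 against 5 libraries, without block or batch. Benjamini-Hochberg adjusted p-values cover all genes of the table, are two-sided and were called under 0.05. The interaction used recovered reads of 13688 genes set on 1 log2 scale for all libraries (prior count 2), and the culture entered as a random block by duplicateCorrelation. Exact permutation tests (scipy 1.17.1) were two-sided. Levels per length used GENCODE M21 exons. The code was tested on simulated data.

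Equally numbered N and OGD libraries carry the same culture label and batch within a genotype, which pairs them by label, although their deviations from group means correlated at -0.59 to 0.05 in wild type and -0.75 to -0.07 in knockout. Alternatives were values as deposited, other prior counts, a filter on low values, another scaling, voom, the culture block, batch and leaving out cultures or libraries. The members and lists were chosen with earlier results of these data known. Named lineage genes were up to 5 rises and 5 falls per OGD comparison, called and at a mean of 1 log2 CPM or more, with Pdgfa and Myrf. A further gene that the rule names whatever its value is not reported here.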

Additional observations from a re-analysis of the deposited data

Results flagged for a closer look

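In 4 of 36 groups of 5 libraries (9 members in 4 groups), 1 library stood apart from the other 4 by Dixon's criterion, where chance gives about 1.8. Pdgfra was at 7.17 log2 CPM in OGD_WT replicate 4, below the other libraries at 7.62 to 7.76. In N_WT replicate 5 Pdgfra was at 7.57, above the others at 7.19 to 7.24. Cnp was at 2.22 in OGD_WT replicate 2, below the others at 3.04 to 3.28. Cspg4 was at 3.4 in OGD_KO replicate 4, below the others at 3.81 to 3.96. Over the 9 members, OGD_WT replicate 2 had the lowest mean deviation from its group (-0.42) and OGD_WT replicate 5 the highest (0.34).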

How the results depend on the processing

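In wild type, 4 members were called under OGD, 8 with the values as deposited, and 2 to 6 when 1 culture was left out. Over all 14235 genes the calls were 6313, 8280 as deposited and 4313 without culture 3, the culture without which 2 members were called. Cspg4 and Sox8 were called in wild type under every alternative run. In knockout, 5 members were called, 0 with batch 3 cultures only (limma, 1 at an unadjusted p under 0.05), and 1 to 5 when 1 culture was left out. With the culture as a replicate block the counts were 4 and 4, and over all genes 5681 and 4829, against 6313 and 5884 without it. Over all genes, batch 3 cultures only gave 2341 in knockout. The genotype comparisons called 5 genes in normoxia and 4 under OGD, 9 and 12 as deposited, and over all alternatives 2 to 9 and 1 to 12. Between genotypes a replicate number carries the same full batch label only for number 1, while numbers 2, 4 and 5 share the pooled batch 3 but not the label within it (correlations of deviations -0.11 to 0.23 in normoxia, -0.17 to 0.23 under OGD), and a block on them called 3 and 2 genes and 0 members. No member was called between genotypes or for the interaction under any alternative run (0 to 0 when 1 library or culture was left out).

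Small differences changed sign. For N_KO against N_WT, Cspg4 was at 0.014 and Sox8 at 0.080 with batch 3 only, and at 0.0070 and 0.042 with the batch label as a covariate. Mbp in OGD_KO against OGD_WT was at 0.060 as deposited. The interaction of Olig1 was -0.15, of Olig2 -0.12 and of Pdgfra -0.053 with batch 3 only, and that of Sox10 was -0.0020 with median ratio scaling. For N_KO against N_WT, leaving out 1 library or culture gave Cnp -0.11 to 0.058, Cspg4 -0.11 to 0.0076, Olig2 -0.27 to 0.061 and Sox8 -0.12 to 0.075. For OGD_KO against N_KO, leaving out 1 library or culture gave Cnp -0.062 to 0.048. For OGD_KO against OGD_WT, leaving out 1 library or culture gave Cnp -0.081 to 0.19, Mbp -0.12 to 0.17, Olig1 -0.22 to 0.0034, Olig2 -0.28 to 0.10, Sox10 -0.37 to 0.082 and Sox8 -0.14 to 0.057. For OGD_WT against N_WT, leaving out 1 library or culture gave Cnp -0.29 to 0.12. For the interaction, leaving out 1 library or culture gave Cnp -0.12 to 0.32, Nkx2-2 -0.054 to 0.25, Olig1 -0.18 to 0.25, Olig2 -0.34 to 0.40, Pdgfra -0.21 to 0.29, Sox10 -0.27 to 0.25 and Sox8 -0.13 to 0.11. The causes were not tested. Nkx2-2 had the fewest reads of the members, 12 to 41 per library, which limits its precision.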
